A study of Homo sapiens with 6 samples.

Results

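The 46 genes described here act in mitotic entry, in the condensation and separation of chromosomes, and in cytokinesis. They were chosen by name, as the rows of the gene count table with the symbols of cyclins A2, B1 and B2, CDK1, mitotic kinases, condensin subunits and their partners. All 46 were found among the 58735 genes of the table, each in 1 protein-coding row, and all 46 passed the filter on low counts that left 15271 genes for the test. RNA had been sequenced after poly(A) capture from SKOV3ip1 cells, an ovarian adenocarcinoma line derived from SKOV3, labelled WT in genotype. Cells received 2 µg of control siRNA or of BARD1 siRNA with Lipofectamine 2000, a lipid transfection reagent, and were collected at 48 h, with 3 libraries labelled as biological replicates in each group and 6 in all. The labels call the material both cells and tumors, while their protocols describe cultured cells. Nothing in the labels says that the cultures were transfected on separate days, so p-values measure the spread between these libraries only. All cultures were of this 1 line, and how many different siRNAs against BARD1 were used is not stated by the labels.

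Entry into mitosis is driven by CDK1 bound to cyclin A or cyclin B. WEE1 and PKMYT1 hold CDK1 back by phosphorylating it, and the CDC25 phosphatases release it. PLK1 and the Aurora kinases then organise centrosomes and spindle, condensin compacts the chromosomes, and the anaphase-promoting complex with CDC20 has securin and cyclin B destroyed so that separase can part the sisters. Anillin, ECT2 and their partners finally divide the cell. The mRNAs of most of these proteins are made mainly in G2 and mitosis, under the transcription factors MYBL2 and FOXM1 with the MuvB complex, and are repressed by the DREAM complex in resting cells. Epithelial ovarian carcinoma lines in culture normally express them, since the cells divide.

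Libraries held 16621108 to 17743404 gene counts. Levels are given as CPM, the usual read counts scaled to a common library total, and 1 CPM stood for about 17.2 reads. BARD1 itself, the partner of BRCA1 in a ubiquitin ligase, stood at 45.8, 37.8 and 49.2 CPM with control siRNA and at 5.91, 6.52 and 9.71 CPM with BARD1 siRNA. Mitochondrially encoded genes took 5.23% to 5.73% of counts with control siRNA and 4.93% to 5.15% with BARD1 siRNA. Of 11 markers of ovarian carcinoma epithelium 8 stood above 1 CPM, among them PAX8, ERBB2 and KRT8, while CDH1, MUC16 and WT1 did not. Their summed level was 5388 to 5699 CPM with control siRNA and 4642 to 4772 CPM with BARD1 siRNA. These markers went both ways, since CD24, from a mean of 1029 to 259 CPM, EPCAM, KRT7, KRT19 and ERBB2 fell, PAX8 (log2 fold change 0.75) and KRT18 (0.40) rose, and KRT8 was not called. All 6 endothelial and all 6 leukocyte markers averaged below 1 CPM, and PTPRC, CD3E, CD68 and LYZ were at 0 in every library. Of 7 fibroblast markers 5 averaged below 1 CPM, DCN and PDGFRA among them. The summed fibroblast level, mostly COL3A1, was 25.7 to 26.8 CPM with control siRNA and 15.9 to 21.6 CPM with BARD1 siRNA. The part of these levels in the results below was not tested.

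With BARD1 siRNA, 43 of the 46 genes fell and 0 rose (edgeR quasi-likelihood test, adjusted p below 0.05 over all 15271 genes). Of all tested genes, 20.3% were called lower and 22% higher, 42.3% in all. The counts by role given below are to be read beside these shares. The median log2 fold change, BARD1 siRNA over control siRNA, was −0.71 for the 46 genes and −0.01 for all tested genes. Every BARD1 siRNA library lay below every control siRNA library for 42 of the 46, against 24.7% of tested genes. Among the 46 genes 8 fell 2-fold or more, namely NEK2, TOP2A, ANLN, ASPM, CDC25C, TPX2, CDCA2 and DLGAP5, against 1.94% of tested genes. The 3 genes that were not called were CKS1B, WEE1 and PRC1. Of all called genes 51.9% were higher, and this share was 41.5% under upper-quartile scaling and 42.2% when only library size was used.

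Together the 46 genes took 0.964%, 0.954% and 0.986% of all counts in control siRNA replicates 1, 2 and 3. In BARD1 siRNA replicates 1, 2 and 3 they took 0.566%, 0.561% and 0.602%. The groups did not overlap in this share. Against the control mean of each gene, the median of the 46 lay at −0.75, −0.69 and −0.63 in the 3 BARD1 siRNA libraries and between −0.03 and 0.07 in the control libraries, on the log2(CPM + 0.5) scale. In such bulk RNA, fewer cells in G2 and mitosis and less of these mRNAs per cell cannot be told apart.

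**Figure D1:**
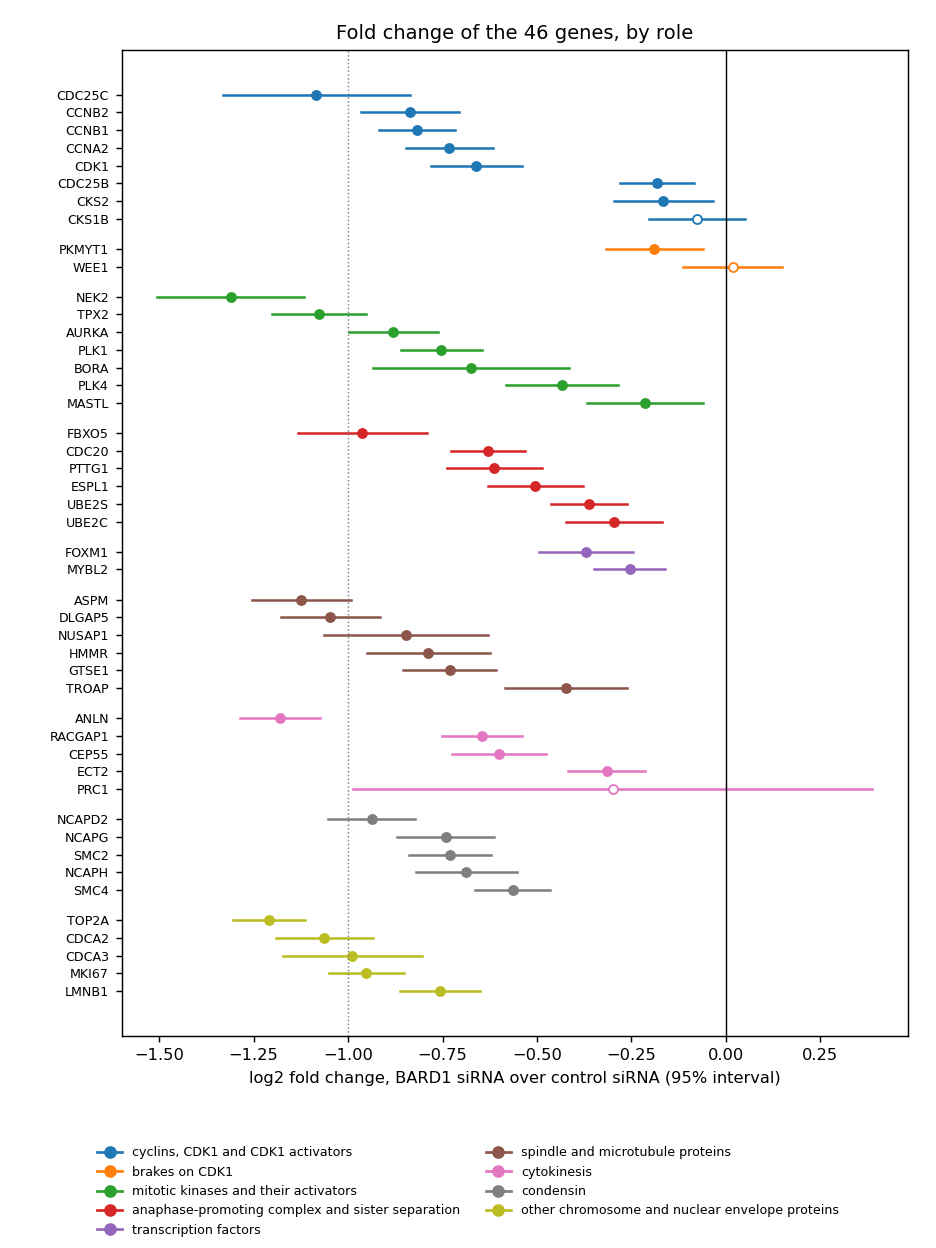
Log2 fold change (BARD1 siRNA over control siRNA, horizontal axis) with its 95% interval for each of the 46 genes, coloured by role; filled points passed the edgeR test, open points did not, and the dotted line marks a 2-fold fall. All points but WEE1 lie left of 0, NEK2 is farthest left at −1.31, and CKS1B, WEE1 and PRC1 are open.

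Promoter sequences show what many of these genes have in common beside their names. The RefSeq promoter table (GRCh38.p14) held windows for 37 of the 46 genes, each from 250 bases before to 50 bases after an annotated gene start. No entry was matched for AURKA, CDCA2, FOXM1, PKMYT1, RACGAP1, TPX2, TROAP, UBE2C and WEE1. Windows were searched on both strands for the cell cycle genes homology region (CHR, spelled TTTGAA or TTCGAA), the element that the MuvB subunit LIN54 is known to bind. The CCAAT box (CCAAT) that binds NF-Y, and E2F-type sites (TTCCCGC or TTGGCGC or TTCGCGC or TTGCCGC), were searched as well. None of these spellings contains another.

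A CHR was present in the windows of 29 of the 37 genes (78.4%), against 15.2% of 10569 tested genes with an entry and 19.5% of all 27305 genes of the promoter table. A CCAAT box was present in 31 of 37 (83.8%), against 42.9% of tested genes, and 19 of 37 (51.4%) had 2 or more of them before the start, against 15% of tested genes. E2F-type sites were present in 13 of 37 (35.1%), against 25.1% of tested genes. Of 31 DNA replication genes with an entry, 26 had an E2F-type site and 2 had a CHR. A match of letters describes the window and says nothing of binding in these cells.

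In 15 of the 37 genes (40.5%) a CHR lay wholly within the 60 bases before a RefSeq start, against 2.66% of tested genes. This distance was chosen after the positions were seen. The 30 bases around that CHR are given below for these 15 genes, since the same element stands near the start of genes whose fold changes ranged widely. The other 14 of the 29 genes with a CHR had none wholly within this distance. Among them, CDCA3, CEP55 and SMC2 had a CHR that began 3 bases before the start and ran past it. The printed bases are written 5′ to 3′ on the gene's strand in GRCh38.p14, with the CHR in capitals. TTCAAA is the CHR read on the other strand.
CCNB2, chr15:59105105-59105134, plus strand: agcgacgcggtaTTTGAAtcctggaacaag
CDK1, chr10:60778453-60778482, plus strand: tagcgcggtgagTTTGAAactgctcgcact
CDC25C, chr5:138331817-138331846, minus strand: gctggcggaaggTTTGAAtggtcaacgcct
CDC25B, chr20:3796260-3796289, plus strand: ctgctgttatttTTCGAAtatataaggagg
CKS2, chr9:89311154-89311183, plus strand: cgggctgtcggaTTCAAAtccggatcgttg
CKS1B, chr1:154974639-154974668, plus strand: gcgggcggcgtgTTTGAAagcgaggccaaa
PLK1, chr16:23678848-23678877, plus strand: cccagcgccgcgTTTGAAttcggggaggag
FBXO5, chr6:152983064-152983093, minus strand: ttaggcaccaaaTTCAAAgattttaaaagt
ESPL1, chr12:53268256-53268285, plus strand: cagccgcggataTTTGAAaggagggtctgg
HMMR, chr5:163460592-163460621, plus strand: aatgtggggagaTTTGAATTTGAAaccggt
GTSE1, chr22:46296832-46296861, plus strand: ctcggagcccttTTCAAAccgaccaatcgg
ANLN, chr7:36389824-36389853, plus strand: tcggcgctgaaaTTCAAATTTGAAcggctg
PRC1, chr15:90994538-90994567, minus strand: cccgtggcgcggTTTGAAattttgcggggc
NCAPG, chr4:17810932-17810961, plus strand: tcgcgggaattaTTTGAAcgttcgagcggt
MKI67, chr10:128126435-128126464, minus strand: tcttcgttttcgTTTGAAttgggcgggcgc

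The CHR began 29 bases before the start in CCNB2, PLK1, CKS2 and MKI67, 30 bases before it in CDC25C and CKS1B, and 31 bases before it in ESPL1. It lay nearer the start in CDK1 (13 bases), PRC1 (20) and GTSE1 (26), and farther from it in NCAPG (35), CDC25B (38) and FBXO5 (40). HMMR and ANLN each carried 2 adjacent copies, beginning 28 and 22 bases and 26 and 20 bases before the start, and MKI67 had a further CHR 47 bases before the start. The 15 genes with a CHR at this place had a median log2 fold change of −0.74, from −1.18 in ANLN to −0.08 in CKS1B, and 13 of them fell. The 22 genes with a promoter entry but no CHR wholly at this place include CDCA3, CEP55 and SMC2. These 22 genes had a median of −0.71, from −1.31 in NEK2 to −0.21 in MASTL, and all 22 fell. Beside these counts, 43 of all 46 genes and 20.3% of all tested genes fell. No test compared the genes with and without a CHR at this place, whose ranges overlapped almost wholly.

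The whole upstream regions of CCNB2, CKS1B and NEK2 are shown because they pair like and unlike promoters with unlike values. These genes were picked with their fold changes known and do not stand for the other promoters. CCNB2 fell, and CKS1B, whose CHR and nearest CCAAT box lie at nearly the same places, was not called. NEK2, with CCAAT boxes and no CHR as spelled here, had the log2 fold change farthest from 0 of the 46. The 250 bases before the RefSeq start are written 5′ to 3′ on the gene's strand, with CCAAT boxes and the CHR in capitals.
CCNB2, chr15:59104896-59105145, plus strand: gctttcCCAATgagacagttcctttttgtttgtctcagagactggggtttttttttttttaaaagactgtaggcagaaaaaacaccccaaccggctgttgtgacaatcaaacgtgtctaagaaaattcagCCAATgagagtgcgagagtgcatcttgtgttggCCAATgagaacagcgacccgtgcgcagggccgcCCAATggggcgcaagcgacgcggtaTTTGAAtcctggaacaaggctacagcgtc
CKS1B, chr1:154974431-154974680, plus strand: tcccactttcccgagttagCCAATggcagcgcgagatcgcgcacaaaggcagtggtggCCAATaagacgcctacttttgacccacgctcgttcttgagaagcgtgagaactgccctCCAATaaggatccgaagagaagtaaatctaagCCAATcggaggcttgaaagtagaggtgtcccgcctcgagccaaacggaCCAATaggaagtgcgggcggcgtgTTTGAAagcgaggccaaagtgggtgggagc
NEK2, chr1:211675622-211675871, minus strand: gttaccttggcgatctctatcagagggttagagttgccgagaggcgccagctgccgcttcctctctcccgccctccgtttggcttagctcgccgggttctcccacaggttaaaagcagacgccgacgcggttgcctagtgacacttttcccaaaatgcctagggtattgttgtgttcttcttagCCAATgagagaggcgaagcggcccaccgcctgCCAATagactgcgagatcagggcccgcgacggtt

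CCNB2 had 4 CCAAT boxes and CKS1B had 5, the one nearest the CHR starting 54 bases before the gene start in both. The others began 244, 120 and 87 bases before it in CCNB2 and 231, 192, 134 and 102 bases before it in CKS1B. In NEK2 the boxes began 66 and 34 bases before the start. MYBL2 had none of the 3 elements as spelled here.

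**Figure D2:**
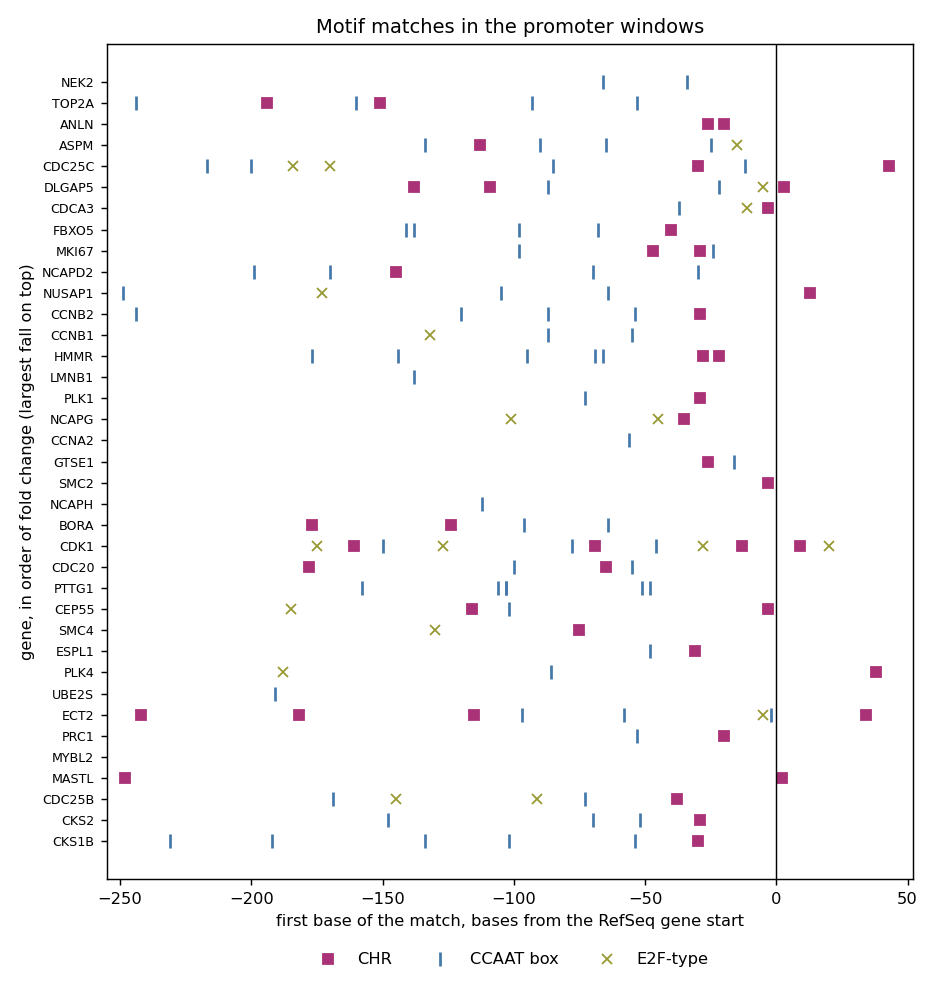
Position of each CHR (squares), CCAAT box (bars) and E2F-type site (crosses) in the promoter windows of the 37 genes with an entry, as bases from the RefSeq gene start (horizontal axis), genes ordered by fold change with the largest fall on top; genes with several annotated starts show all of them. In 15 genes a CHR lies wholly within the 60 bases before the start, among them ANLN near the top of the order and CKS1B at its bottom. In CDCA3, CEP55 and SMC2 a CHR begins 3 bases before the start and runs past it.

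Cyclins and CDK1 fell together. CCNA2, which encodes cyclin A2, stood at 169, 164 and 186 CPM with control siRNA and at 105, 98.2 and 110 CPM with BARD1 siRNA. CCNB1, which encodes cyclin B1, stood at 290.3, 290.5 and 315 CPM and then at 168, 168 and 172 CPM. CDK1, the kinase they activate, stood at 159, 158 and 171 CPM and then at 91.3, 105 and 112 CPM. The groups did not overlap for any of the 3 genes, and the log2 fold changes were −0.73, −0.82 and −0.66. CCNB2, for cyclin B2, changed by −0.84, with 95% limits of −0.97 and −0.71. The ratio of CCNB1 to CCNB2 per kilobase of gene model was 3.33 ± 0.249 with control siRNA and 3.36 ± 0.0346 with BARD1 siRNA (SD, n = 3 per group, exact two-sided permutation p = 0.9).

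Both CDC25 phosphatases among the 46 genes fell, with 95% limits that did not overlap (−1.33 and −0.84 for CDC25C, −0.28 and −0.09 for CDC25B). CDC25C (ENSG00000158402, GRCh38 chromosome 5, 138285265 to 138338355, minus strand) stood at 23.8, 22.2 and 25.9 CPM with control siRNA and at 12.4, 8.94 and 12.6 CPM with BARD1 siRNA. Its highest treated library lay well below its lowest control, and the log2 fold change was −1.08 (SE 0.13, edgeR adjusted p = 3.03e-10). The deposited model of CDC25C overlaps that of FAM53C on the other strand over 6421 bases, FAM53C had the higher mean count, and its log2 fold change was 0.27. CDC25B, more abundant per kilobase at 82.1 against 7.18 CPM per kilobase in control cells, stood at 340.3, 370.4 and 352 CPM and then at 326, 312 and 299 CPM. Its groups did not overlap either, at a log2 fold change of −0.18 (SE 0.05, edgeR adjusted p = 0.00215). The third family member, CDC25A, which is no member of the 46, rose by 0.21 on the log2 scale.

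The small CDK-binding subunits CKS1B and CKS2 differed little between groups. CKS1B stood at 81.1, 87.6 and 93.0 CPM with control siRNA and at 81.6, 85.8 and 80.9 CPM with BARD1 siRNA, and the ranges overlapped. Its log2 fold change was −0.08, with 95% limits of −0.20 and 0.05 (edgeR adjusted p = 0.368). CKS2, the member with the highest level per kilobase of this class, stood at 81.6, 86.1 and 94.4 CPM and then at 80.3, 72.7 and 80.8 CPM. The groups came close without overlap, at a log2 fold change of −0.17 (edgeR adjusted p = 0.0417). That call was lost without control siRNA replicate 3, at an adjusted p of 0.231, without BARD1 siRNA replicate 2, at 0.252, in DESeq2, at 0.0875, in limma-voom, at 0.0529, and at 0.0523 when low counts were not filtered. Rows named as pseudogene copies of CKS1B held 1.26% of its mean count.

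Of the kinases that restrain CDK1, WEE1 was not called and PKMYT1 fell. WEE1 stood at 74.6, 71.9 and 79.4 CPM with control siRNA and at 76.9, 78.3 and 73.7 CPM with BARD1 siRNA. The ranges overlapped almost wholly, and the log2 fold change was 0.02, with 95% limits of −0.11 and 0.15 (edgeR adjusted p = 0.857). The interval does not reach the median of the 46 genes. The sign was not stable, at −0.047 under upper-quartile scaling, −0.042 when only library size was used, −0.016 without control siRNA replicate 2 and −0.000808 without BARD1 siRNA replicate 2. PKMYT1, the membrane-bound relative of WEE1, stood at 108.7, 130.9 and 108.5 CPM and then at 97.6, 98.7 and 108.9 CPM, with an overlap of the groups. Its log2 fold change was −0.19 (SE 0.07, edgeR adjusted p = 0.0178). The PKMYT1 call was lost without control siRNA replicate 2, at an adjusted p of 0.217, without BARD1 siRNA replicates 1 and 2, at 0.0958 and 0.0976, and with DESeq2, at 0.0513. About 33.9% of the span of PKMYT1 overlaps PAQR4 on the other strand, whose log2 fold change was −0.50.

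Relative to WEE1, the activators lay lower with BARD1 siRNA, with no overlap between the groups. Since WEE1 was nearly unchanged, these ratios mostly restate the fold changes of the activators and are no separate result. Ratios to PKMYT1, which was called lower, were not computed. The ratio of CDC25C to WEE1 per kilobase was 0.882, 0.855 and 0.903 in the control libraries and 0.445, 0.316 and 0.472 in the BARD1 siRNA libraries. The ratio of CCNB1 to WEE1 went from 14.3 ± 0.277 to 8.02 ± 0.355 and that of CDK1 to WEE1 from 5.08 ± 0.0921 to 3.18 ± 0.395 (SD, n = 3 per group). CDC25B to WEE1 moved least, from 10.1 ± 0.822 to 8.77 ± 0.27. Each of these 4 ratios gave an exact two-sided permutation p of 0.1, the smallest that 3 against 3 libraries allow. In all 14 ratios were computed, so none could pass an adjusted threshold.

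**Figure D3:**
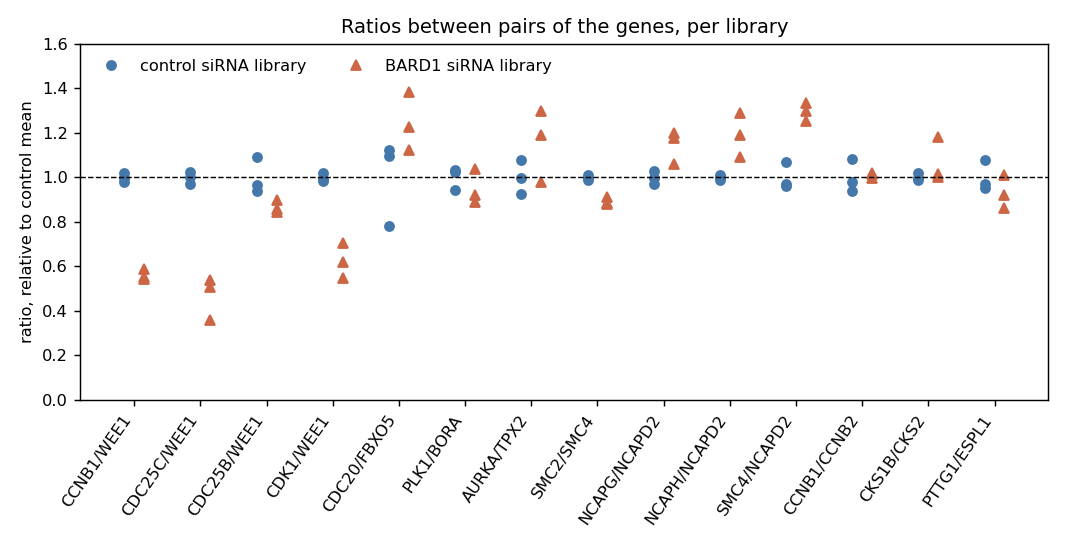
Ratio between pairs of the 46 genes per kilobase in each library, divided by the mean of the 3 control siRNA libraries (vertical axis, dashed line at 1), with circles for control and triangles for BARD1 siRNA libraries. The CCNB1, CDC25C and CDK1 ratios to WEE1 lie below all controls, while the CCNB1 to CCNB2, CKS1B to CKS2 and PLK1 to BORA ratios overlap.

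All 7 mitotic kinases and kinase activators fell. NEK2 (ENSG00000117650, chromosome 1, 211658657 to 211675630, minus strand), a kinase that helps to split the centrosomes, stood at 43.6, 44.7 and 49.3 CPM with control siRNA and at 21.0, 18.4 and 16.0 CPM with BARD1 siRNA. The treated libraries kept 40.3% of the control level, the largest proportional loss among the 46 (log2 fold change −1.31, SE 0.10, edgeR adjusted p = 2.73e-16). TPX2 (ENSG00000088325, chromosome 20, 31739271 to 31801805, plus strand), which activates Aurora A on the spindle, stood at 456, 423 and 475 CPM and then at 194, 205 and 242 CPM. It had the highest level per kilobase of the class in both groups, and the log2 fold change was −1.08 (SE 0.06, edgeR adjusted p = 3.59e-13).

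AURKA, the Aurora A kinase itself, stood at 137, 137 and 132 CPM with control siRNA and at 75.9, 73.3 and 71.5 CPM with BARD1 siRNA, a log2 fold change of −0.88. PLK1, the kinase that phosphorylates CDC25 and WEE1 at mitotic entry, stood at 214, 234 and 221 CPM and then at 128, 131 and 138 CPM, a change of −0.75. Neither gene showed overlap between groups. BORA, the cofactor with which Aurora A activates PLK1, changed by −0.67, and the ratio of PLK1 to BORA was 8.93 ± 0.452 and 8.48 ± 0.705 in the respective groups (exact permutation p = 0.4). BORA shares 14.2% of its span with DIS3 on the other strand, which had the higher mean count and a log2 fold change of 0.30.

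PLK4, which starts centriole duplication, and MASTL, the Greatwall kinase that blocks the phosphatase PP2A-B55 during mitosis, had the smallest changes of the class. PLK4 stood at 62.3, 60.4 and 67.7 CPM and then at 45.2, 47.4 and 48.2 CPM, with no overlap, at −0.43. MASTL stood at 53.5, 54.96 and 58.6 CPM and then at 44.5, 48.8 and 50.7 CPM, at −0.21 (edgeR adjusted p = 0.0228). The MASTL call was lost without control siRNA replicate 3, at 0.0891, and without BARD1 siRNA replicates 1 and 2, at 0.138 and 0.0504. About 1.38% of the span of MASTL overlaps YME1L1 on the other strand, which had more reads and a log2 fold change of 0.30.

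All 6 genes of the anaphase-promoting complex and of sister separation fell. FBXO5, which encodes the complex's inhibitor EMI1, stood at 77.8, 81.6 and 101 CPM with control siRNA and at 41.0, 42.9 and 49.7 CPM with BARD1 siRNA (log2 fold change −0.96, SE 0.09, edgeR adjusted p = 1.19e-10). CDC20, the activator of the complex in mitosis and the most abundant of the class per kilobase, stood at 490, 501 and 442 CPM and then at 318, 295 and 313 CPM (−0.63, SE 0.05, edgeR adjusted p = 1.84e-15). Neither overlapped between groups. The ratio of CDC20 to FBXO5 was 11.8, 11.5 and 8.24 in the control libraries and 14.6, 12.9 and 11.9 in the treated ones, with exact permutation p = 0.1.

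The securin gene PTTG1 and the separase gene ESPL1 encode an inhibitor and the protease it holds, and their log2 fold changes were −0.61 and −0.50. Their ratio per kilobase was 4.27 ± 0.286 with control siRNA and 3.98 ± 0.321 with BARD1 siRNA, and the groups overlapped (exact permutation p = 0.4). The ubiquitin-conjugating enzymes of the complex moved less. UBE2C stood at 126, 142 and 160 CPM and then at 114, 113 and 122 CPM, a close but complete separation, at −0.30 (edgeR adjusted p = 0.000204). UBE2S changed by −0.36, and 43.6% of its span overlaps the ribosomal protein gene RPL28 on the other strand, which had more reads and a log2 fold change of 0.13.

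FOXM1 and MYBL2, transcription factors that activate many G2 and mitotic genes, both fell. FOXM1 (ENSG00000111206, chromosome 12, 2857681 to 2877155, minus strand) stood at 107, 110 and 101 CPM with control siRNA and at 81.4, 76.8 and 87.3 CPM with BARD1 siRNA. MYBL2 (ENSG00000101057, chromosome 20, 43667019 to 43716496, plus strand), which encodes B-MYB, stood at 705, 731 and 656 CPM and then at 576, 560.2 and 616 CPM. The groups did not overlap for either gene. The log2 fold changes were −0.37 for FOXM1 (SE 0.06, edgeR adjusted p = 2.68e-06) and −0.25 for MYBL2 (SE 0.05, edgeR adjusted p = 1.72e-05), beside the median of −0.71 for the 46 genes. MYBL2 had the highest level per kilobase of all 46 genes in both groups, 251 and 210.4 CPM per kilobase.

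Spindle and microtubule proteins all fell, with a median of −0.82 over 6 genes. ASPM (ENSG00000066279, chromosome 1, 197084128 to 197146694, minus strand), which focuses spindle poles, stood at 184, 154 and 187 CPM with control siRNA and at 79.95, 74.2 and 86.6 CPM with BARD1 siRNA (log2 fold change −1.12, SE 0.07, edgeR adjusted p = 3.79e-17). DLGAP5, which bundles kinetochore fibres, stood at 124, 118 and 127 CPM and then at 62.7, 53.1 and 62.6 CPM (−1.05, SE 0.07, edgeR adjusted p = 3.22e-19). For both genes the treated values lay well under the lowest control value. NUSAP1, a microtubule-bundling protein, changed by −0.85, HMMR, a spindle protein and hyaluronan receptor, by −0.79, and GTSE1, a microtubule-binding protein of G2 and S phase, by −0.73. TROAP, a spindle-associated protein, fell least, from 70.0, 74.4 and 62.1 CPM to 43.6, 56.2 and 54.0 CPM, at −0.42.

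Of 5 cytokinesis genes 4 fell. ANLN (ENSG00000011426, chromosome 7, 36389806 to 36453791, plus strand), which encodes the contractile ring scaffold anillin, stood at 546, 493 and 577 CPM with control siRNA and at 235, 223 and 255 CPM with BARD1 siRNA. It was the most abundant of the class per kilobase with control siRNA, at 89.6 CPM per kilobase. With BARD1 siRNA it had 39.5 CPM per kilobase, just below ECT2 at 40.4. ANLN kept 44.1% of its control level (log2 fold change −1.18, SE 0.05, edgeR adjusted p = 1.45e-22). RACGAP1, a subunit of centralspindlin, changed by −0.64, CEP55, which recruits the abscission machinery to the midbody, by −0.60, and ECT2, the exchange factor that activates RhoA at the cell equator, by −0.32. ECT2 stood at 281, 260.2 and 289 CPM and then at 215, 231 and 220.4 CPM, a small but complete separation.

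PRC1, which crosslinks the microtubules of the central spindle, could not be measured as the others were. It stood at 1.31, 2.70 and 2.88 CPM with control siRNA and at 2.59, 1.30 and 1.72 CPM with BARD1 siRNA, and the ranges overlapped wholly. The log2 fold change was −0.30, with 95% limits of −0.99 and 0.39 (edgeR adjusted p = 0.529), an interval that holds both no change and the median of the 46 genes. With single libraries left out the value ran from −0.60, without BARD1 siRNA replicate 1, to −0.10, without BARD1 siRNA replicate 2, and it was −0.58, −0.17 and −0.10 without control siRNA replicates 1, 2 and 3. At 0.416 CPM per kilobase in control cells PRC1 had the lowest level of all 46, and the next lowest, BORA, had 5.26. The deposited table also holds AC068831.7, which covers 99.5% of the PRC1 span on the same strand and is a protein-coding model with a mean of 130 counts against 35.8 for PRC1. AC068831.7 had a log2 fold change of −0.51 (edgeR adjusted p = 0.0171). The labels do not say how reads that lie in both models were counted, so the low count of PRC1 does not show a low level of its mRNA.

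**Figure D4:**
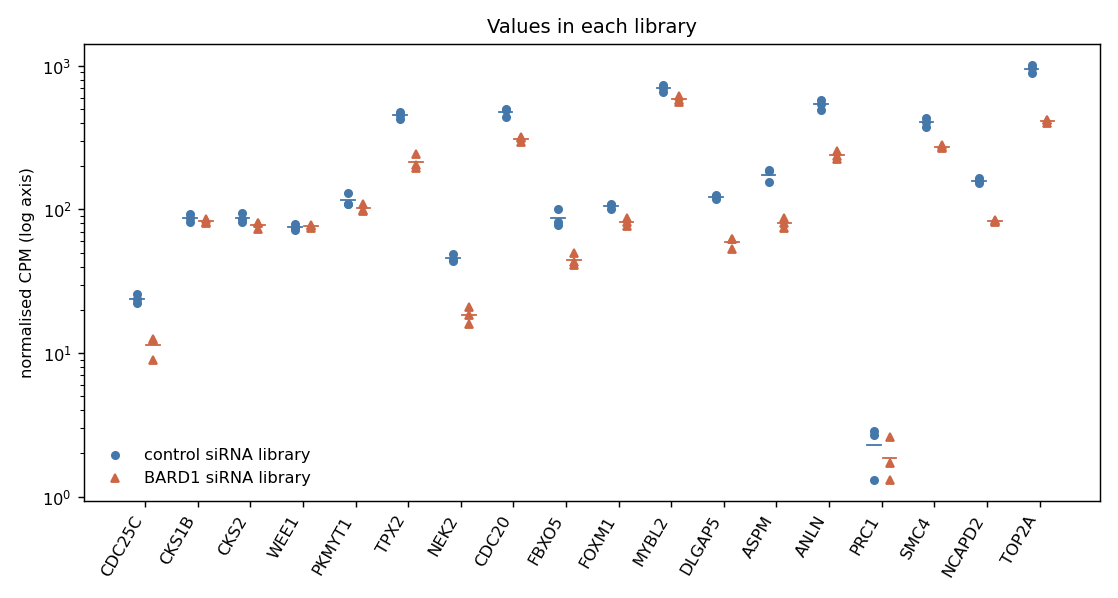
Normalised CPM (vertical log axis) in each control siRNA library (circles) and BARD1 siRNA library (triangles) for the 18 genes with the largest change or highest level in their role class or without a call, with group means as bars. The groups separate for 14 of the 18 genes and overlap for CKS1B, WEE1, PKMYT1 and PRC1, and PRC1 lies lowest at 1.30 to 2.88 CPM.

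All 5 subunits of condensin I and the shared SMC core fell, with log2 fold changes from −0.94 to −0.56. NCAPD2 (ENSG00000010292, chromosome 12, 6493356 to 6531955, plus strand), the HEAT-repeat subunit that contacts chromatin, stood at 165, 153 and 158 CPM with control siRNA and at 82.1, 83.8 and 82.8 CPM with BARD1 siRNA (log2 fold change −0.94, SE 0.06, edgeR adjusted p = 1.31e-19). SMC4, one of the ATPase arms, stood at 405, 377 and 431 CPM and then at 271, 267 and 281 CPM (−0.56, SE 0.05, edgeR adjusted p = 9.75e-14). Neither overlapped between groups. The other ATPase arm, SMC2, changed by −0.73, the kleisin NCAPH by −0.69 and the HEAT-repeat subunit NCAPG by −0.74.

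Ratios between subunits of the complex lay apart in the libraries of each group. SMC4 per kilobase was 1.88, 1.89 and 2.09 times NCAPD2 in the control libraries and 2.54, 2.45 and 2.61 times NCAPD2 in the treated ones. SMC2 relative to SMC4 went from 0.707 ± 0.00794 to 0.629 ± 0.0121, and NCAPH relative to NCAPD2 from 1.23 ± 0.0123 to 1.46 ± 0.123 (SD, n = 3 per group). These ratios did not overlap between groups, each with exact permutation p = 0.1, the smallest possible here. SMC4 overlaps TRIM59 on the other strand over 7.06% of its span, and TRIM59 had a log2 fold change of −0.81 and a mean of 587 counts against 5852 for SMC4.

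The remaining chromosome and nuclear envelope genes had the lowest median of the role classes, −0.99 over 5 genes, and all 5 fell. TOP2A (ENSG00000131747, chromosome 17, 40388516 to 40417950, minus strand), the topoisomerase that untangles sister chromatids, stood at 967, 886 and 1016 CPM with control siRNA and at 421, 402.3 and 417 CPM with BARD1 siRNA. It was the most abundant gene of the class per kilobase, and its log2 fold change of −1.21 (SE 0.05) had the lowest edgeR adjusted p of the 46, at 1.70e-27. MKI67, the proliferation antigen Ki-67 that coats mitotic chromosomes, stood at 900, 819 and 837 CPM and then at 426, 415 and 481 CPM, at −0.95. CDCA2, which targets protein phosphatase 1 to chromatin, changed by −1.06, CDCA3, a trigger of WEE1 degradation, by −0.99, and LMNB1, the nuclear lamina protein lamin B1, by −0.76.

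Related genes outside the 46 showed a less uniform picture. Of 159 listed genes 151 were tested, of which 94 fell and 21 rose, with a median of −0.26, beside 20.3% lower and 22% higher over all tested genes. Some of these lists hold genes that are not cell cycle regulated, and all lists were drawn up with earlier results of these data known. Of 15 genes of condensin II and cohesin 10 fell and 2 rose, with the shugoshin SGO2 at −1.10 and the condensin II subunits NCAPD3 and NCAPG2 at −0.51 and −0.41. The 2 that rose were STAG2, a cohesin subunit, at 0.19 and WAPL, which releases cohesin, at 0.26, and 1 gene of this list was called higher under upper-quartile scaling or when only library size was used. Subunits and partners of the anaphase-promoting complex outside the 46 fell in 8 of 16 cases and rose in 0, led by ANAPC4 at −0.47, ANAPC7 at −0.40 and ANAPC5 at −0.36, and 1 gene was called higher without control siRNA replicate 3.

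In the pathway downstream of MASTL 3 of 9 tested genes fell and 2 rose, shares near those over all tested genes (20.3% lower and 22% higher), so these counts show nothing about the pathway. The genes called lower were the PP2A inhibitor ARPP19 at −0.50, PPP2R2C at −0.22 and PPP2R1A at −0.13, and 1 gene was called lower without BARD1 siRNA replicate 3. PPP2R2A, a B55 subunit, and the catalytic subunit PPP2CB rose by 0.38 and 0.23. Among 11 MuvB and DREAM subunits 7 fell, with LIN9 at −0.75, LIN52 at −0.60 and RBBP4 at −0.53, and the repressor E2F4 rose by 0.27.

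Of 27 listed genes of abscission and the contractile ring 21 were found by symbol, and all 21 were tested. Of these 13 fell (61.9%) and 4 rose, beside 20.3% lower and 22% higher over all tested genes. The kinesin KIF20A had a log2 fold change of −1.50 and the myosin light chain MYL9 of −1.25. The RhoA exchange factor ARHGEF2 rose by 1.61, and the ESCRT genes CHMP4B, TSG101 and VPS4B rose by 0.38, 0.22 and 0.18. Under upper-quartile scaling, library size only, unfiltered counts or DESeq2, and without control siRNA replicate 2 or BARD1 siRNA replicate 1, 2 genes of this list were called higher. Of 30 other regulators of G2 and mitosis 17 fell (56.7%), with FAM83D at −1.11, CENPF at −1.06 and BUB1 at −0.80. The 6 that rose were SFN at 0.69, CDK7 at 0.40, BTRC at 0.39, CKAP2L at 0.26, HAUS6 at 0.25 and CDC25A at 0.21. In both lists the share that rose was near the 22% over all tested genes, so the counts of rises show nothing about the lists.

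DNA replication genes had the list median nearest to that of the 46. Of 35 tested genes 32 fell and 0 rose, with a median of −0.53, led by the thymidylate synthase gene TYMS at −1.06, the primase gene PRIM1 at −0.99 and MCM6 at −0.83. Genes of G1 and quiescence fell in 4 and rose in 6 of 14 cases, with a median of −0.06. The share that fell, 28.6%, was near the 20.3% over all tested genes. The share that rose, 6 of 14, was above the 22% over all tested genes. The CDK inhibitor CDKN1A rose by 3.25 and the antiproliferative gene BTG1 by 1.68. BTG2 at 1.15, CCNG2 at 0.73, the G1 kinase gene CDK6 at 0.65 and CDKN1C at 0.55 rose as well. CDKN2C at −2.09, CCND2 at −1.03, CDK4 at −0.32 and CCND3 at −0.21 fell. No test compared any of these lists with the 46 genes.

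**Figure D5:**
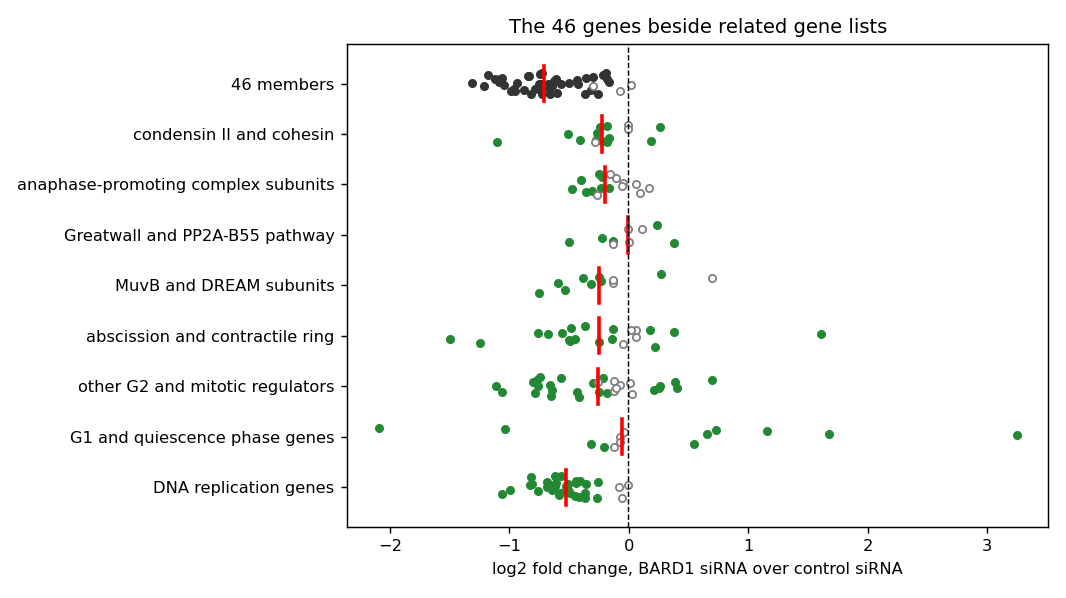
Log2 fold change (horizontal axis) of each of the 46 genes and of tested genes in 8 related lists, filled where the edgeR test was passed and open where it was not, with the median of each list in red and that of all tested genes dashed. The 46 genes (median −0.71) and DNA replication genes (median −0.53) lie almost wholly left of 0, and the other lists spread to both sides.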

How the data were processed

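The authors deposited raw read counts per gene, whole numbers without normalization, with each gene's length and GRCh38 position. The submitters' processing notes name HISAT2, CASAVA and GRCh38 (hg38). The versions, the counting program, its strand setting and the annotation release were not given in the sources used here. Reads of overlapping genes can therefore be misplaced: 13 of the 46 genes overlap another tested gene, and in 5 of them the partner had more reads.

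Counts were tested with edgeR 4.0.16 in R 4.3.3 (robust quasi-likelihood test, TMM factors, group alone, filterByExpr with a minimum count of 10 and total of 15) over all tested genes, with Benjamini-Hochberg adjustment and a threshold of 0.05. The SE was taken from the log2 fold change and the F statistic, and 95% limits lie 1.96 SE to each side. CPM values use TMM-scaled totals. Levels are compared between genes only per kilobase of the deposited gene length. Alternatives used DESeq2 1.42.0, limma-voom (limma 3.58.1), other scalings and filters, protein-coding genes only, a replicate block, no robust estimation, and each library left out.

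All 46 genes may be named. Values in every library were due for the member of each role class with the largest change and with the highest level per kilobase, for members not called, and for BARD1. Other members given so were chosen after their values were seen. Of each related list, the 3 called genes with the largest change and those against the list's direction are named. Of the G1 and quiescence genes, all called genes are named. The members, lists and tests were chosen with earlier results of these data known.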

Additional observations from a re-analysis of the deposited data

How the results depend on the processing

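Across 16 alternatives the 46 fold changes gave 736 values, of which 720 kept their direction and side of the threshold, 12 lost their call and 4 changed sign. The 12 concern CKS2, PKMYT1 and MASTL. The sign changes are all of WEE1, at −0.047 under upper-quartile scaling and −0.042 when only library size was used. Over the 6 runs that each left out a library WEE1 lay between −0.016 and 0.055, with −0.000808 without BARD1 siRNA replicate 2. Between 40 and 43 of the 46 genes were called lower in every alternative, with medians from −0.77 to −0.68. With the replicate block 43 were called lower, as without it, and 6512 genes of the table were called in place of 6462. Same-numbered libraries had correlations of −0.00906, −0.0149 and −0.0218 in their deviations from the group means. Pairs with unlike numbers ran from −0.0102 to 0.026. Whether equal numbers mark cultures handled together is not stated by the labels and cannot be told from these values. The CHR share of 78.4% was 67.6% before the gene start alone and 40.5% wholly within the 60 bases before it, a narrower window by construction. PRC1 had the fewest reads of the genes, at 35.8 mean counts, and how reads shared with AC068831.7 were counted is not known.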

Other observations

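Across the 46 genes, the log2 level per kilobase and the log2 fold change had a Spearman correlation of 0.133 and a Pearson correlation of 0.0557, and gene length and fold change a Spearman correlation of −0.146. These are descriptions over genes measured in the same 6 libraries.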
